A study of Brassica napus with 3 samples.

Results

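The peaks described here are the sites on chromosomes A04 and C04 of rapeseed (Brassica napus) at which the transcription factor BnaC3.LFY retained DNA. They were taken by chromosome name, with no cut on their values: 1716 peaks on A04 and 4695 on C04, together 6411 of the 62949 peaks in the list (10.2%). The pair was chosen with earlier results of these data known, among them that C04 holds the longest peak-free interval of the list. The series is titled as ChIP-Seq, which reads binding in chromatin, whereas its design text and sample titles name DNA affinity purification sequencing (DAP-seq). The latter was followed here, and this conflict in the labels bears on what a peak stands for. In DAP-seq a protein made outside the plant pulls fragments out of a library of naked genomic DNA. There were 2 DAP libraries of BnaC3.LFY and 1 input library, all from genomic DNA of Brassica napus; the labels name the tissue as shoot apices and also as inflorescence, and they give no genotype, cultivar, treatment or age. The authors brought the libraries together in 1 peak list on the Westar v0 assembly, so no value below has an error between libraries. Sequencing depth is unknown, and the 95% intervals given cover counting error only.

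LEAFY is a transcription factor found throughout land plants. In Arabidopsis it switches on floral identity genes such as APETALA1 and AGAMOUS, so that a young primordium at the shoot apex becomes a flower rather than a leafy shoot. Rapeseed carries a chromosome set from a Brassica rapa ancestor (A) and another from a Brassica oleracea ancestor (C), and related chromosomes of the sets are called homoeologues. A04 and C04 are such a pair. DAP-seq shows where a factor can bind naked DNA, without the chromatin that packs the DNA in a living cell.

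A04 and C04 differed far more in length than in how thickly they were set with peaks. The span, taken from base 1 to the end of the last peak, was 24.9 Mb on A04 and 72.0 Mb on C04, a ratio of 2.89. The peak numbers stood in a ratio of 2.74. This gave 68.9 peaks per Mb on A04 (95% exact Poisson interval 65.7 to 72.2) and 65.2 on C04 (63.4 to 67.1), and these intervals overlap. A04 was the shortest of the 19 chromosomes and stood 6th in density, while C04 was the second longest and stood 12th. The order of the pair rested on weaker peaks. Among peaks with a -log10 q (the peak caller's p corrected for the number of tests) of at least 10, the density was 32.9 per Mb on A04 and 34.1 per Mb on C04. Peaks covered 2.70% of the A04 span and 2.58% of the C04 span.

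The most visible shared feature was a stretch almost without peaks before the midpoint of each chromosome, called the peak-poor core here. It was defined, after the data had been seen, as the longest run of peak-free intervals of at least 250 kb that are parted by single peaks. On A04 the core ran from 6909817 to 9373868, which is 2.46 Mb or 9.89% of the span. On C04 it ran from 23247665 to 28878964, which is 5.63 Mb or 7.82% of the span. In relative position the A04 core lay between 27.7 and 37.6% and the C04 core between 32.3 and 40.1%, so the 2 cores overlapped without coinciding. The C04 core was the longest of the 19 chromosomes in Mb, and the A04 core took the largest share of its own chromosome. The cores of the other 17 chromosomes measured up to 4.69 Mb and up to 9.29% of the span.

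The A04 core consisted of 4 peak-free intervals and the C04 core of 3. On A04 the intervals measured 924 kb (from 6909817 to 7834056), 826 kb (7834388 to 8660680), 305 kb (8661158 to 8965900) and 408 kb (8966201 to 9373868). The first pair are the peak-free intervals of at least 500 kb that A04 has. On C04 the core held the longest peak-free interval of the list, 2.82 Mb from 23942677 to 26763269. It was flanked by an interval of 695 kb before it (23247665 to 23942435) and by one of 2.12 Mb after it (26763540 to 28878964). These are all 3 intervals of at least 500 kb on C04. The 5.63 Mb they add up to was the largest such sum of the 19 chromosomes, against 1.75 Mb on A04. Outside the cores the longest peak-free interval was 133 kb on A04, from 23405540 to 23538097. On C04 it was 319 kb, from 31631777 to 31950721, and a further 287 kb were free from 14428268 to 14714869. Positions of centromeres, repeats and unresolved bases in this assembly were not used here, and their part in the cores was not tested.

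None of the few peaks inside the cores was among the strong peaks, defined below as having a fold of at least 16.1. With so few peaks this says little, since only 10% of the whole list are strong. A04, with a median fold of 5.76, held 3 core peaks. The first, from 7834057 to 7834387, had a fold enrichment over the local background of 5.16. The second, from 8660681 to 8661157, had a fold of 6.69, and the third, from 8965901 to 8966200, had a fold of 6.31. C04, with a median fold of 6.15, held 2, of 4.46-fold from 23942436 to 23942676 and of 5.62-fold from 26763270 to 26763539. Both C04 core peaks lay below the median of their chromosome, as did the first on A04, while the other A04 core peaks lay above theirs. The -log10 q ran from 3.78, at the first C04 core peak, to 10.7, at the second of A04. With peaks below the median fold of the list left out, the longest stretch without a peak was 5.71 Mb on C04 and 1.75 Mb on A04.

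**Figure D1:**
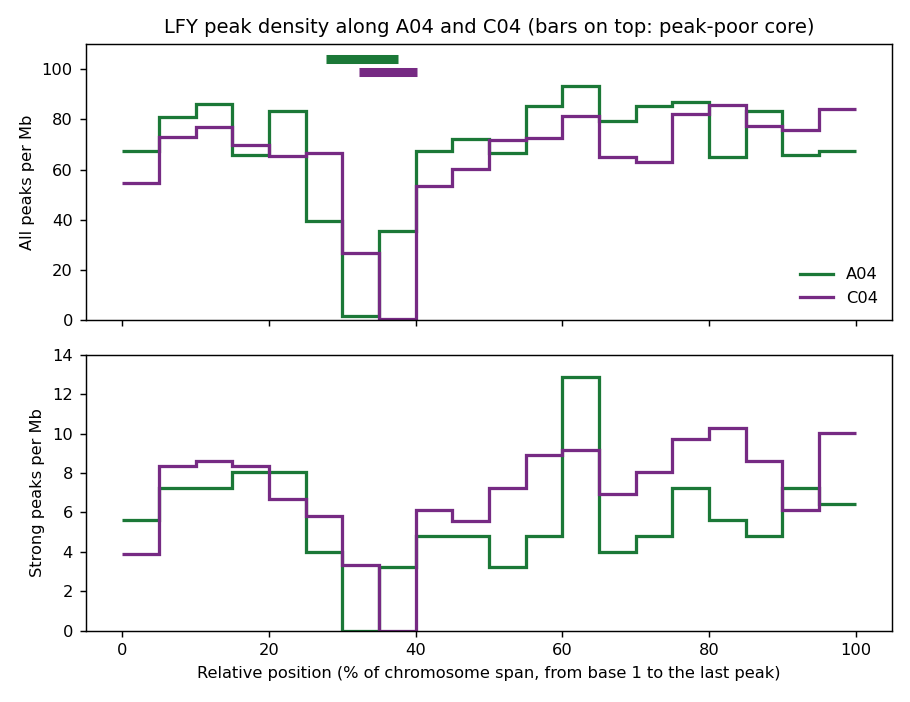
Peaks per Mb (upper panel) and strong peaks per Mb (lower panel) in 20 equal bins of relative position, in % of the span, for A04 (green) and C04 (purple); bars on top mark the peak-poor cores. In the upper panel both lines fall close to 0 between 30 and 40% of the span, at 1.61 peaks per Mb on A04 (30 to 35%) and 0.278 on C04 (35 to 40%). Over the 16 bins that no core touches, Pearson's r between these lines was 0.099.

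Peaks were numerous again within 1 Mb of the cores, at counts somewhat below the density of the arms as a whole. The first 1 Mb before the A04 core held 72 peaks and the first 1 Mb after it held 70, against 76.3 per Mb over all of A04 outside the core. The whole steps of A04, both of these included, held 64 to 89 peaks. On C04 the corresponding steps held 56 and 68 peaks, against 67.0 and 72.8 per Mb in their own arms and 70.7 per Mb outside the core. Whether these shortfalls exceed counting error was not tested. The third step after the C04 core held 34 peaks, the lowest count of the 66 whole steps of this chromosome, and it contains part of the 319 kb interval named above. On A04 the 6 whole steps before the core held 72, 87, 64, 89, 71 and 87 peaks, counted outwards from it, and showed no steady slope. After the core, the 4 steps next to it held 65 to 77 peaks, the following 6 held 79 to 89 and the last 5 held 67 to 84. Before the C04 core the first steps outwards held 56, 56, 75, 61, 66 and 77 peaks, against a median of 63 over the 23 whole steps of that arm. On C04 the first 6 steps after the core held 34 to 68 peaks, against a median of 74 over the 43 whole steps of that arm, and a step near the end of the chromosome held 108.

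**Figure D2:**
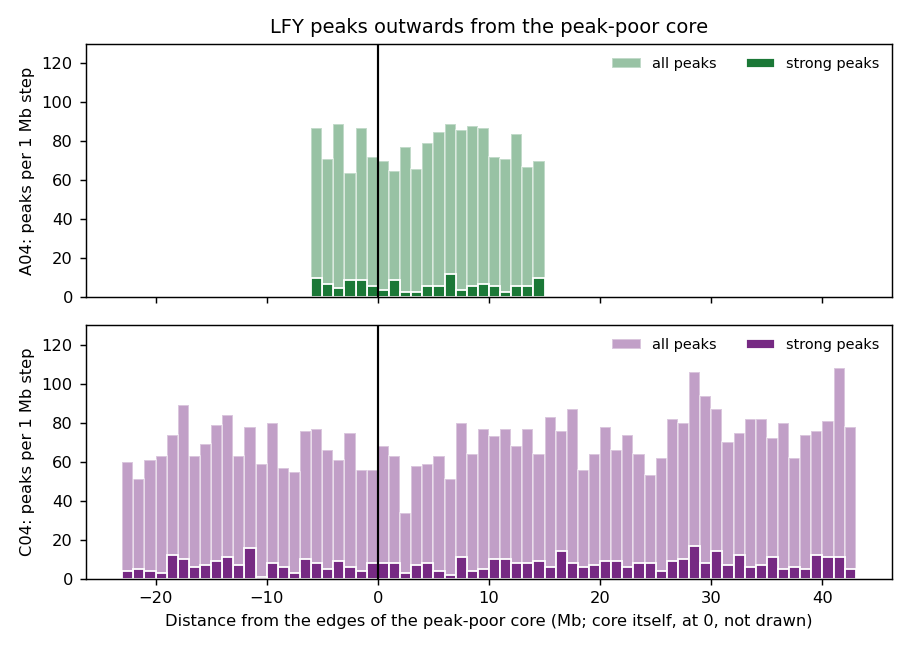
Peaks in steps of 1 Mb outwards from the edges of the peak-poor core (at 0, the core itself not drawn), for A04 (upper panel) and C04 (lower panel), with all peaks in pale and strong peaks in dark bars. On A04 every whole step holds between 64 and 89 peaks; on C04 the steps range from 34 to 108.

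The core divides each chromosome into a shorter arm before it and a longer arm after it. The arms of A04 measured 6.91 and 15.5 Mb and those of C04 23.2 and 43.1 Mb, a short to long ratio of 0.445 and 0.539. The arms of A04 were equally dense, at 76.3 peaks per Mb each. On C04 the short arm held 67.0 and the long arm 72.8 peaks per Mb. For the strong peaks, defined as the 10% of all peaks in the list with the highest fold (at least 16.1), the arms were ordered in opposite ways. Strong peaks stood at 7.24 per Mb in the short and 5.92 in the long arm of A04, and at 6.97 in the short and 8.08 in the long arm of C04. As a share of peaks this was 9.49% (95% Wilson interval 7.27 to 12.3%) against 7.76% (6.37 to 9.42%) on A04. On C04 it was 10.4% (8.98 to 12.0%) against 11.1% (10 to 12.2%). The intervals overlap within each chromosome, and the difference in share between the arms was not tested.

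Ends and middle were compared by setting the first and the last 20% of the span against the 60% between them. On A04 the ends held 72.8 and the middle 66.3 peaks per Mb, a ratio of 1.10 whose 95% Wilson interval (0.997 to 1.21) includes 1. On C04 the ends held 74.6 and the middle 59.0 peaks per Mb, a ratio of 1.27 (1.19 to 1.34), the highest of the 9 C chromosomes. The core lies in the middle part of both. Without it the ratio was 0.919 on A04, so that the middle was then the denser part, and 1.10 on C04. The ends of C04 were unequal, with 68.6 peaks per Mb in the first and 80.7 in the last 20%. Its first 1 Mb held 35 peaks and its last 1 Mb held 81, and over 2 Mb the counts were 101 and 187. These ends are not measured alike: the first starts at base 1, while the last stops at the last peak and leaves out any sequence beyond it. The first 1 Mb of C04 contains the stretch before its first peak and a peak-free interval of 144 kb, from 295995 to 440119. With the span counted from the first peak, the density of C04 was 65.4 instead of 65.2 peaks per Mb. The ends of A04 were closer to each other and ordered the other way, at 75.1 peaks per Mb in the first and 70.4 in the last 20%.

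Strong and weaker peaks were divided between the ends and the middle of C04 in nearly the same way. Strong peaks lay in the ends in 45.3% of cases (95% Wilson interval 41.0 to 49.6%), and weaker peaks in 45.8% (44.3 to 47.3%). On A04 the shares were 45.8% for strong (37.8 to 54.0%) and 41.9% for weaker peaks (39.5 to 44.4%), again with overlapping intervals. The median fold of the ends was close to that of the middle, at 5.77 and 5.75 on A04 and at 6.1 and 6.2 on C04. In bins of 5% of the span it varied more, from 5.31 to 6.52 on A04 and, leaving out a bin with 1 peak, from 5.77 to 6.93 on C04. Within 1 Mb of the core it was 6.17 on A04 (142 peaks), against 5.74 in the rest of the arms (1571 peaks). On C04 it was 7.04 (124 peaks) against 6.13 (4569 peaks). The cores were defined after the data had been seen, and these differences were not tested. Median widths of ends and middle were close, at 359 and 356 bp on A04 and at 366 and 362 bp on C04.

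Whether the profiles of the homoeologues follow each other was asked over 20 bins of relative position. Over all bins Pearson's r was 0.69 and Spearman's rho 0.38. This likeness rested on the cores. In the 16 bins that no core touches, r was 0.099 and rho 0.091, and the densities there ranged from 65.0 to 93.1 peaks per Mb on A04 and from 54.5 to 85.6 on C04. A bin of A04 among these held 81 to 116 peaks, so counting error alone can lower r, and a low r does not show that the profiles differ. With each arm scaled to its own length and divided into 10 bins, r was 0.26 over both arms, 0.41 in the short and 0.12 in the long arm. The rho was 0.21, 0.53 and -0.012 in the same order. For other features of the 16 bins without a core, r was 0.079 for the median fold, 0.23 for the median width and -0.055 for the share of strong peaks. Reversing C04 gave r = -0.23. Bins of a chromosome share 1 list and 1 assembly and are not replicates, so these correlations are descriptions with no p-value. Equal relative position is not the same as equal sequence, and no alignment of the chromosomes was used here.

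The likeness in profile was shared with chromosomes that are not homoeologues of this pair. A04 had a higher r with A08 (0.75) and A10 (0.73) than with C04, followed by A06 (0.63). C04 had a higher r with A10 (0.74) and A08 (0.70) than with A04, again followed by A06 (0.62). These values hold for the direction given in the assembly. With the other chromosome reversed, the highest r was 0.81 for A04 (with C03) and 0.90 for C04 (with C02). The cores of A06, A08 and A10 are centred at 34.1, 39.8 and 41.9% of the span, against 32.7% on A04 and 36.2% on C04. The remaining 14 chromosomes had their cores centred at 25.5% or less, or at 46.7% or more. Over the bins without a core, r of A04 with the 17 chromosomes outside the pair ranged from -0.22 to 0.37. For C04 the range was -0.41 to 0.38, and the value of the pair lies inside both. Of 7 pairs of related A and C chromosomes, A02 with C02 had a higher r over all bins (0.78) than A04 with C04, and the other 5 lay between -0.18 and 0.44.

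**Figure D3:**
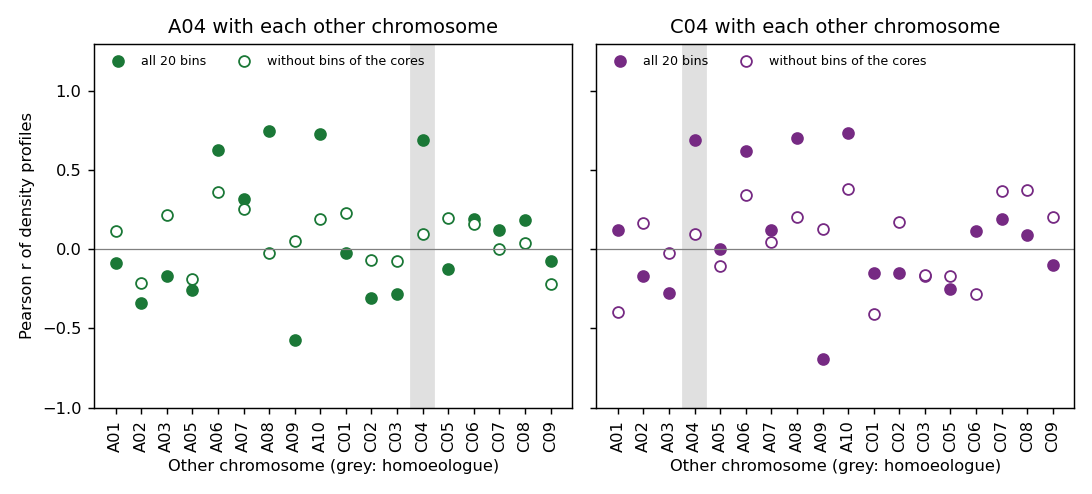
Pearson r between the density profile of A04 (left) or C04 (right) and that of each other chromosome, over all 20 bins of relative position (filled) and over the bins that no peak-poor core touches (open); grey marks the homoeologue. The filled point of the pair (0.69) is among the 4 highest in both panels, together with A06, A08 and A10, and the open point (0.099) is in the middle of the open points.

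The cumulative shares of peaks along the pair stayed close. A04 reached 25, 50 and 75% of its peaks at 22.8, 56.6 and 76.2% of its span, and C04 at 24.1, 57.2 and 79.8%. The largest gap between the cumulative curves was 5.03 percentage points, at 77.7% of the span, where A04 had passed 77.0% of its peaks and C04 72.0%.

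In strength the homoeologues differed most at the upper end. The median fold was 5.76 on A04 (95% binomial interval 5.62 to 5.93) and 6.15 on C04 (6.04 to 6.23). The upper quartile was 8.71 on A04 and 9.63 on C04, while the lower quartiles were 4.61 and 4.70. Strong peaks, 10% of the whole list, made up 142 of the 1716 peaks of A04 (8.28%, 95% Wilson interval 7.06 to 9.67%) and 510 of the 4695 of C04 (10.9%, 10 to 11.8%). Per Mb these are 5.70 on A04 and 7.09 on C04, a ratio of 1.24. Peaks below that strength were denser on A04, at 63.2 per Mb against 58.2. The same ratio of strong peaks per Mb lay between 1.15 and 1.70 in the 6 other pairs of related A and C chromosomes.

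By class of fold, the density of A04 exceeded that of C04 most between a fold of 4 and 6, and that of C04 exceeded A04 most among the strongest peaks. In the first of these classes A04 held 28.3 and C04 23.1 peaks per Mb, a C04 to A04 ratio of 0.816. From 6 to 8 the densities were nearly equal, at 12.9 and 12.5 per Mb. From 8 to 10 they were 5.42 and 6.21, and from 10 to 15 they were 7.23 and 7.52. From 15 to 20 they were 3.01 and 2.99 per Mb, and in this class C04 lay below the other 8 C chromosomes (3.50 to 4.13). From 20 to 30 they were 2.53 and 3.04 per Mb. From 30 upwards A04 held 27 peaks, or 1.08 per Mb, and C04 137, or 1.90 per Mb, a ratio of 1.76.

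**Figure D4:**
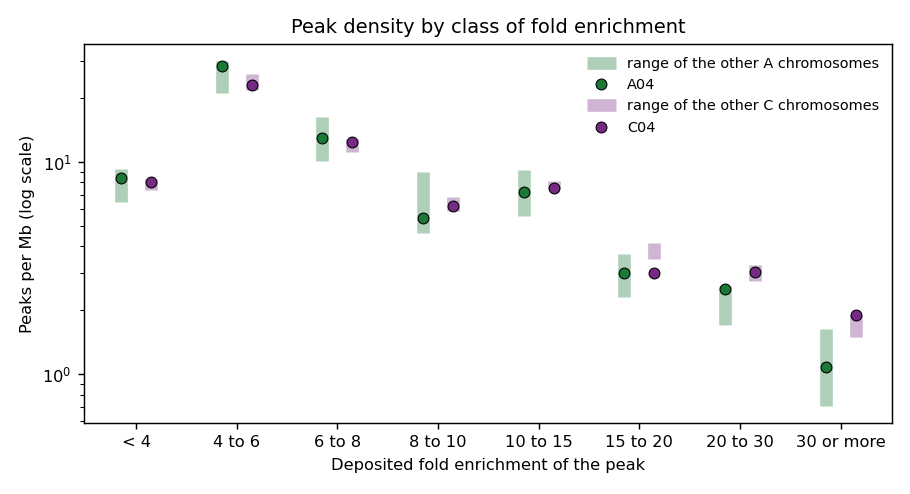
Peaks per Mb (log axis) by class of deposited fold for A04 and C04 (points), with the range of the other 9 A and the other 8 C chromosomes (pale bars). A04 lies inside the range of the other A chromosomes in all 8 classes, and C04 lies below the other C chromosomes between a fold of 15 and 20 and at the upper edge of their range from 30 upwards.

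The rank of C04 among C chromosomes changed with the cut for strength, but their shares lay close together. With strong peaks taken from a fold of 16.1, its share of 10.9% was the second lowest of the 9 C chromosomes. The others, at 10.7 to 11.5%, all lay inside its 95% Wilson interval (10 to 11.8%). From a fold of 20, which 6.28% of the whole list reached, the share of C04 of 7.58% was the highest of all 19 chromosomes. The other C chromosomes had 6.81 to 7.39%, and whether this difference exceeds counting error was not tested. A04 reached a fold of 20 in 90 peaks (5.24%) and C04 in 356. A fold of 50, reached by 0.259% of the list, was found in 3 peaks of A04 and 10 of C04. Of the 100 strongest peaks of the pair, 87 were on C04 (95% Wilson interval 79.0 to 92.2%), which makes up 74.3% of the joint span.

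The strongest peak of A04 ran from 24142494 to 24143092, at 96.9% of the span, with a fold of 56.2. The next had a fold of 54.6, from 1692206 to 1692813, and the third a fold of 50.8, from 20029074 to 20029666. They were followed by peaks of 43.7-fold (22262589 to 22263164) and 43.4-fold (17230319 to 17230839). No other chromosome had a weaker strongest peak than A04. On C04 the strongest peak, of 76.2-fold, lay at 46.2% of the span from 33273411 to 33273985, in the long arm. The second, of 71.1-fold, ran from 5310565 to 5311248 and the third, of 66.0-fold, from 40077703 to 40078497. The fourth, of 63.0-fold, from 71907809 to 71908512, lay at 99.9% of the span, almost at the last peak of the chromosome. The fifth had a fold of 60.9, from 44352256 to 44352943. None of these 10 lay in a core, but the cores by definition hold few peaks, 3 on A04 and 2 on C04. The 10 peaks measured 521 to 795 bp. The genes next to them were not analysed here. At the other end of the scale, the weakest peak was 2.41-fold on A04 (3817478 to 3817743) and 2.22-fold on C04 (61352220 to 61352561).

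Widths were nearly alike. The median was 358 bp on A04 (quartiles 294 and 443) and 364 bp on C04 (296 and 452), and the narrowest peak was 236 bp on both. Stronger peaks were wider. On A04 the median was 291 bp among the 429 peaks of lowest fold and 464 bp among the 429 of highest fold. On C04 it was 289 bp and 478 bp in groups of 1174 peaks formed in the same way. Across peaks, fold and width had a Spearman rho of 0.65 on A04 and 0.67 on C04; the fold and the extent of a peak come from the same reads. Peaks of at least 800 bp made up 2.62% of A04 (45 peaks) and 2.002% of C04 (94 peaks). Of these, 13 (28.9%) lay in the ends of A04, which held 725 of all its 1716 peaks. On C04, 40 (42.6%) lay in the ends, which held 2148 of all its 4695 peaks.

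On both chromosomes a pair of the broadest peaks lay within 1 Mb before the core, farther apart from each other on C04 than on A04. On A04, peaks of 1206 bp (6732600 to 6733805, 8.27-fold) and 1508 bp (6735037 to 6736544, 14.98-fold) lay 176 and 173 kb from its edge. They were the third and the second broadest of the chromosome. On C04, peaks of 1650 bp (22839817 to 22841466, 34.4-fold) and 1785 bp (22854523 to 22856307, 33.8-fold) lay 406 and 391 kb from the edge and were its second and its broadest. This was noticed after the values had been seen. Within 1 Mb of the core, peaks of 800 bp or more were 6 of 142 on A04 (4.23%, 95% Wilson interval 1.95 to 8.91%), against 39 of 1571 farther out (2.48%, 1.82 to 3.38%). On C04 they were 4 of 124 (3.23%, 1.26 to 8.0%) against 90 of 4569 (1.97%, 1.61 to 2.41%). The intervals overlap on both chromosomes. With so few broad peaks near the cores, an enrichment there could not be judged and was not tested. The broadest peak of A04, of 1547 bp and 11.1-fold, ran from 3376200 to 3377746.

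Spacing between neighbouring peaks was nearly the same on both. The median distance between peak edges was 8.08 kb on A04 and 8.35 kb on C04. The 10th percentile was 1.196 and 1.125 kb and the 90th was 30.04 and 32.48 kb. Neighbours lay within 500 bp in 4.61% of A04 pairs and 3.96% of C04 pairs. The closest pair of A04 was parted by 130 bp, between a peak of 4.72-fold (6023606 to 6023889) and one of 9.90-fold (6024020 to 6024436). That of C04 was parted by 71 bp, between peaks of 3.76-fold (10108679 to 10109077) and 6.999-fold (10109149 to 10109503). Peaks with no neighbour within 40 kb numbered 11 on A04, of which 3 lay in the core, and 23 on C04, of which 2 lay in the core. Strong peaks were 90.4 kb apart at the median on A04 and 92.0 kb on C04. Outside the cores, the longest stretch without a strong peak was 0.845 Mb on A04 and 1.13 Mb on C04, and these stretches held 52 and 53 weaker peaks.

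**Figure D5:**
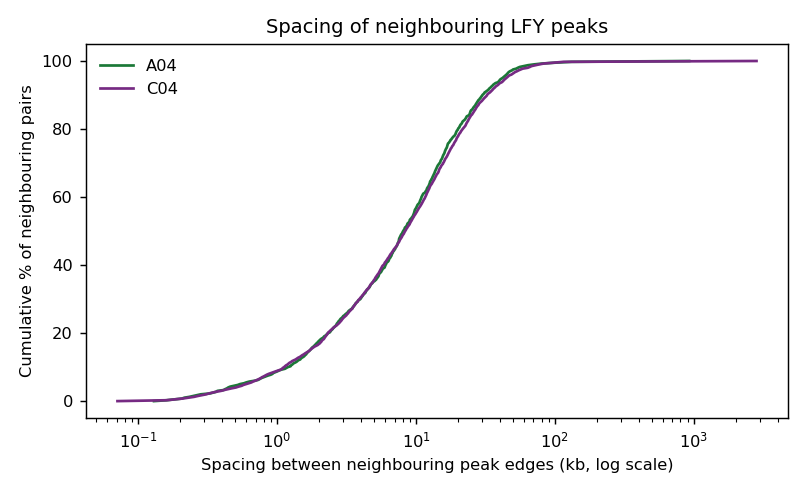
Cumulative percentage of neighbouring peak pairs by the distance between their edges in kb (log axis), for A04 and C04. The curves nearly coincide, with medians of 8.08 and 8.35 kb, and differ at the far right, where the longest interval is 0.924 Mb on A04 and 2.82 Mb on C04.

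Neither chromosome had a window of 100 kb with 20 or more peaks. Such windows were rare elsewhere too: the other 8 C chromosomes had at most 1 each. The other 9 A chromosomes had 0 to 36, with a median of 1. Windows held 6.86 ± 3.62 peaks (SD over 250 windows) on A04 and 6.52 ± 3.53 (SD over 720 windows) on C04. The variance divided by the mean was 1.91 on both, the lowest of the 10 A chromosomes for A04 and the third highest of the 9 C chromosomes for C04. The fullest window of A04 held 16 peaks, from 16900001 to 17000000, none of them strong, and the next held 15 (5500001 to 5600000) and 14 (3300001 to 3400000). On C04 the fullest held 18 peaks, from 70600001 to 70700000, followed by 2 windows of 17 (58800001 to 58900000 and 59700001 to 59800000). The last of these contained 4 strong peaks. Windows without a peak made up 8.4% of A04 (21) and 8.75% of C04 (63).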

How the data were processed

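Measurements were 2 DAP libraries and 1 input library. The submitters' processing notes name the tools HOMER, MACS2, SAMtools, Bowtie2 and fastp, with no version, role or setting. How the libraries were combined is not stated there. The deposited list has 7 columns and no header, and gives per peak an interval, a score, a fold enrichment (ratio to the local background), a -log10 p and a -log10 q, read from the order of the columns. Each is the authors' own value. Starts were read as counted from 0 and are printed counted from 1.

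Chromosome span ends at the last peak, since lengths were not at hand; a peak was placed by its midpoint. Python 3.11.15, numpy 2.4.6, pandas 2.3.3 and scipy 1.17.1 were used. The search for cores was run on 20 simulated chromosomes with randomly scattered peaks and a planted hole, which was recovered in all 20. Such chromosomes are simpler than the real ones. End counts were only recounted there and a profile only compared with itself, so neither measure was tested. With 1 list there are no replicates, so no test was run: the design implies none over samples, and peaks are not replicates. Intervals are Wilson (shares, and ends to middle ratios), exact Poisson (densities) and binomial over ranks (medians). The members, lists and measures were chosen with earlier results of these data known. Regions named are the 5 strongest peaks, the peak-free intervals of at least 500 kb, the 3 fullest windows, the broadest peak and the closest pair of each chromosome; the cores, the broad peaks near them and shorter intervals were added after seeing values. Alternatives used only peaks with a -log10 q of at least 5 or 10, or only peaks with an averaging sign, and other spans, bins and thresholds. The averaging sign was a fractional score, or more than 6 significant digits, taken to mean averaging over lines of the peak caller. That meaning was inferred from the digits alone, and averages with fewer digits can be missed. Sequence of the Westar v0 assembly was not used here.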

Additional observations from a re-analysis of the deposited data

How the results depend on the processing

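No paired analysis was possible because 1 list holds all libraries, and for the same reason no replicate could be left out. A value was taken to stay when it remained within its 95% interval, within 0.1 for r, or within 1% for an interval length. Only peaks with a -log10 q of at least 10 gave, for A04 and C04 in turn, 32.9 and 34.1 peaks per Mb, strong shares of 17.3 and 20.8%, median folds of 8.88 and 9.37, median widths of 422 and 426 bp and longest peak-free intervals of 1.75 and 5.71 Mb. A minimum of 5 gave 58.4 and 55.4 peaks per Mb, 9.76 and 12.8%, folds of 6.38 and 6.77, widths of 370.0 and 379 bp and, on C04, 3.52 Mb. Only peaks with the averaging sign gave 44.6 and 44.0 peaks per Mb, 11.9 and 15.2%, folds of 7.12 and 7.60, widths of 398 and 406 bp and, on C04, 5.66 Mb. Fewer peaks by construction lower the density and lengthen the intervals. Under these 3 settings C04 kept the higher strong share, median fold, median width and longest interval, while the order of density turned at a minimum of 10.

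Spans without peak-free intervals of 500 kb or more gave 74.1 and 70.8 peaks per Mb, and without the cores 76.3 and 70.7. Strong shares were 5.24 and 7.58% from a fold of 20, and 20.1 and 23.7% from a fold of 10. The ends to middle ratio without the long intervals was 0.969 and 1.10 and without the cores 0.919 and 1.10. On C04 it was 1.13 with ends of 10% of the span and 1.12 with ends of 5 Mb. Longest intervals between peaks at or above the median fold were 1.75 and 5.71 Mb. The profile r was 0.883 over 10 bins, 0.520 over 40 bins, 0.383 as Spearman's rho, 0.0988 without the bins of the cores and 0.258 with arms scaled separately. It turned negative with C04 reversed (-0.231), and when A04 was set against the last (-0.041) or the first (-0.132) stretch of C04 of equal length in Mb. Settings that concern the cores were chosen after seeing the data. The cause of these shifts was not tested. Depth per library is unknown, so what the weakest peaks are worth cannot be judged here.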
